A study of Mus musculus with 20 samples.

Results

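The 33 genes described here, called bile acid genes, serve bile acid synthesis from cholesterol or transport at the hepatocyte membranes. Some of the carriers move other cargo, such as phosphatidylcholine, cholesterol, drugs or prostaglandin. The 33 comprise 13 synthesis enzymes, 7 uptake carriers and 13 export carriers, and were chosen by name. Every non-control probe of the array whose gene symbol, older or newer, was on the list was taken, which gave 49 of 41174 probes. The livers came from 10 responder mice, susceptible to diet-induced obesity, and 10 non-responder mice, which resisted it. All 20 were male C57BL/6J mice, fed from weaning a diet that drew 60% of its energy from fat and examined at 6 weeks of age, with no group on another diet. The labels give neither the measure that defined a responder nor the hour of death, and they do not state that each array came from a different mouse, so p-values speak only of the spread between these samples.

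Bile acids are made in the hepatocyte by a neutral pathway that Cyp7a1 opens and by oxysterol pathways that Cyp27a1, Cyp7b1 and their relatives serve. Abcb11 drives the finished, conjugated bile salts across the canalicular membrane, and Slc10a1 and the organic anion carriers take them back up from portal blood. The receptor encoded by Nr1h4 senses bile acids and raises Nr0b2, which represses Cyp7a1 and Cyp8b1, and several of these genes follow the circadian clock.

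Levels are log2 array signal relative to each array's 75th percentile, so that a value of 0 is the 75th percentile. Between 55.8 and 71.2 percent of the spots of an array were well above background. Levels cannot be set against each other between genes, because probes differ in brightness. In 5 or more livers of either group 31 of the 33 genes were well above background, and these are called measured. Abcb1a, a drug efflux pump, was not well above background on any array, and each of the 2 probes of Slc51a, a chain of the basolateral bile acid exporter, was so on 1 responder array and on 0 non-responder arrays. The defining hepatocyte transcripts were bright in every liver, with 7 of the 8 listed markers well above background on all 20 arrays. In whole liver, fewer cells of a type and less RNA per cell cannot be told apart.

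No bile acid gene separated responder from non-responder livers after adjustment over all rows of the array. The limma fit covered 17183 rows, each a gene or an unnamed probe, and 0 had an adjusted p under 0.05 (0 percent), against 1371 at an unadjusted p under 0.05 (7.98 percent). The smallest adjusted p among the 31 genes was 0.489. An unadjusted p under 0.05 was reached by 2 of the 31 (6.45 percent), Cyp39a1, with a lower level in responders, and Slco2b1, with a higher one. The same share over all rows was 4.25 percent higher and 3.73 percent lower, so the count for these genes was near the background. The fitted difference was above 0 for 19 of the 31 (61.3 percent) and below 0 for 12, against 48.9 percent above 0 over all rows. The split turned round with normexp background correction, to 7 above and 24 below, and without non-responder 10, to 14 above and 17 below. The difference had the same sign in both slide series for 16 of the 31 (51.6 percent), against 48.8 percent of all rows.

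**Figure D1:**
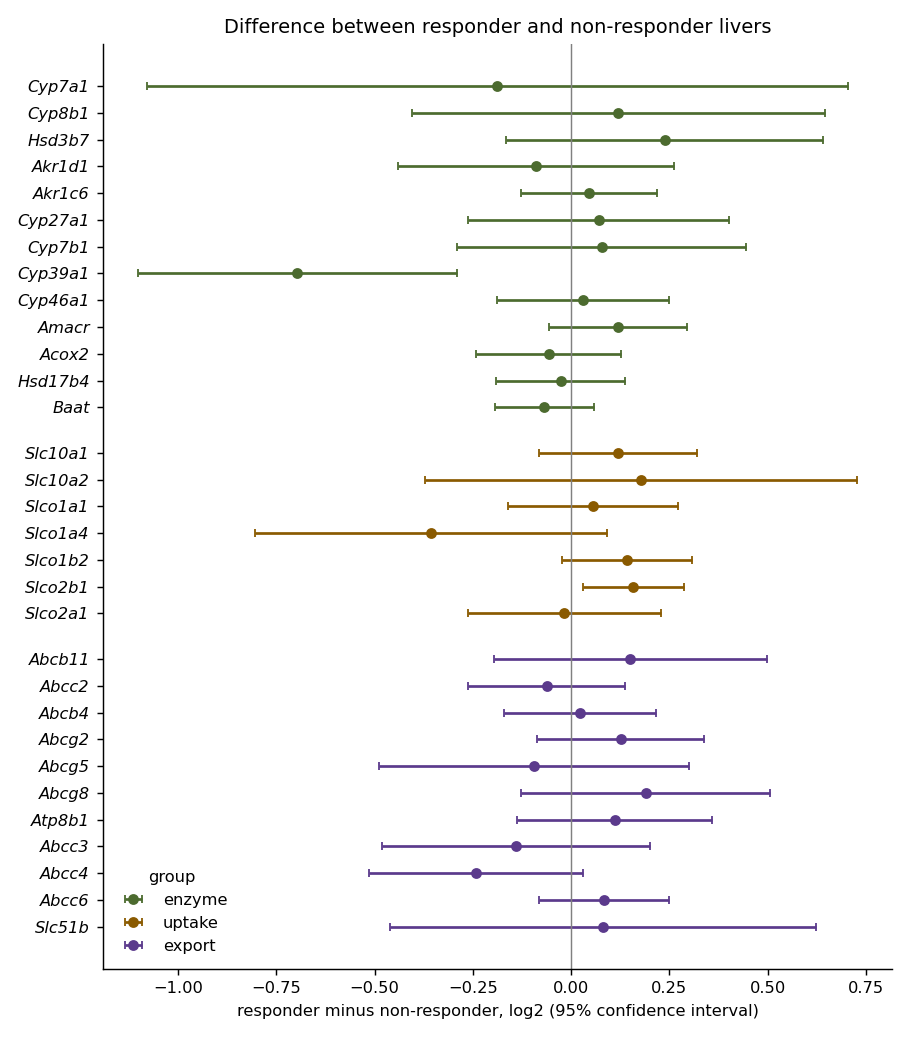
Difference between responder and non-responder livers for the 31 measured genes, on a log2 scale, with 95% confidence intervals from the fit that includes the slide series. The interval of Cyp39a1, from -1.10 to -0.29, and that of Slco2b1, from 0.03 to 0.29, leave out 0, and the intervals of Cyp7a1 and Slc10a2 are among the widest.

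Among the 13 enzymes, Cyp39a1 stood apart with a level 1.62-fold lower in responders, and the others had differences between -0.19 and 0.24. The median difference was 0.03 for the enzymes, against a median of -0.003 over all rows, and it turned below 0 with normexp background correction (-0.39), quantile normalization (-0.02), the authors' values (-0.02), array weights (-0.01), in the first slide series alone (-0.15), and without non-responder 10 (-0.08), non-responder 5 (-0.01) or responder 3 (-0.003). Of the 13, 7 were above 0 and 6 below.

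Cyp39a1 hydroxylates the oxysterol that Cyp46a1 makes, a side route into bile acids. Its level in responders was lowest at 0.67, with a median of 1.55 and a highest value of 2.20. In non-responders it was lowest at 1.79, with a median of 2.20 and a highest value of 2.93. The groups overlapped only between 1.79 and 2.20, and 9 of 10 responders lay below the mean of the non-responders of their slide series. The difference was -0.70 (SE 0.19, n = 10 against 10 arrays, limma unadjusted p = 0.00189, adjusted p = 0.489), the 61st smallest p of all rows.

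The slides fell into 2 series by their numbers, which were scanned apart, the first with 4 responders and 6 non-responders and the second with 6 responders and 4 non-responders. Cyp39a1 differed by -0.83 (SE 0.30) in the first series and by -0.57 (SE 0.23) in the second. On the 3 slides that held an array of each group, responder minus non-responder was -1.12, -1.37 and -0.38. The probe lies at chr17:43887373-43887432 in mm9, and a second Cyp39a1 probe at chr17:43887005-43887064 gave a difference of -0.60 (SE 0.18). Leaving out any 1 array kept the difference between -0.79 and -0.56 and the unadjusted limma p between 0.000726 and 0.00505. Its sign was negative in both series, on all 3 slides and without each array, and no adjusted p of the 31 genes was under 0.05 without any array. Cyp46a1, mainly a brain enzyme, differed by 0.03 (SE 0.10).

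Cyp7a1, the rate-limiting enzyme of the neutral pathway, varied among livers far more than between groups. It ranged in responders from 1.87 through a median of 4.04 to 5.14, and in non-responders from 1.90 through a median of 4.38 to 4.81. The groups overlapped almost throughout. Their difference was -0.19 (SE 0.43), with a 95% interval from -1.08 to 0.70, and its residual SD of 0.99 exceeded that of 97.7 percent of all rows.

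Cyp8b1 is the sterol hydroxylase that turns the pathway towards cholic acid. It ranged in responders from 3.03 through a median of 3.93 to 4.21, and in non-responders from 2.01 through a median of 3.97 to 4.60. The non-responder range enclosed the responder range, and the difference was 0.12 (SE 0.25), or -0.11 (SE 0.20) without non-responder 10, the lowest liver. The next steps on the steroid nucleus showed differences of 0.24 (SE 0.19) for Hsd3b7, 0.05 (SE 0.08) for Akr1c6 and -0.09 (SE 0.17) for Akr1d1.

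Cyp27a1, the mitochondrial hydroxylase of the sterol side chain, ranged in responders from 3.12 through a median of 3.53 to 4.03, and in non-responders from 2.61 through a median of 3.60 to 4.15. Cyp7b1, the oxysterol hydroxylase, ranged in responders from 6.66 through a median of 7.15 to 7.27, and in non-responders from 5.63 through a median of 7.14 to 7.76. Both non-responder ranges enclosed the responder range. The difference was 0.07 (SE 0.16) for Cyp27a1 and 0.08 (SE 0.18) for Cyp7b1, and the second was -0.11 (SE 0.11) without non-responder 10. The steadiest enzyme was Baat, which joins bile acids to taurine or glycine. It ranged in responders from 4.92 through a median of 5.11 to 5.32, and in non-responders from 5.0 through a median of 5.14 to 5.34, with a difference of -0.07 (SE 0.06, 95% interval -0.19 to 0.06). The peroxisomal side chain enzymes differed by 0.12 (SE 0.08) for Amacr, -0.06 (SE 0.09) for Acox2 and -0.03 (SE 0.08) for Hsd17b4.

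**Figure D2:**
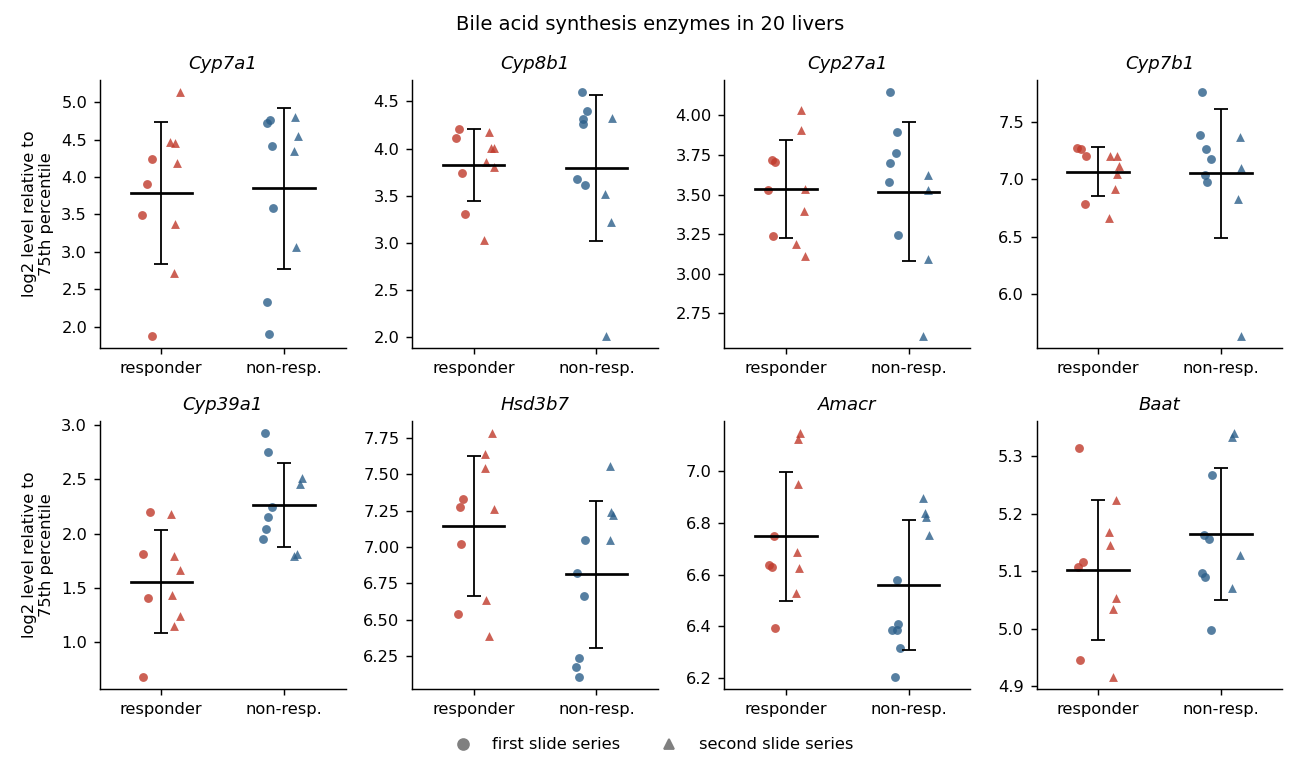
Log2 levels of 8 synthesis enzymes relative to the array's 75th percentile in responder and non-responder livers, 1 point per array, circles for the first and triangles for the second slide series, with the group mean and SD (n = 10 each). Cyp39a1 averaged 1.55 in responders and 2.26 in non-responders, while the other panels overlap over most of their range and a single non-responder lies lowest for Cyp8b1, Cyp27a1 and Cyp7b1.

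The 7 uptake carriers had a median difference of 0.12, which became -0.34 with normexp background correction. Of them 5 were above 0 and 2 below, and 1, Slco2b1, had an unadjusted p under 0.05. Slc10a1, the sodium-coupled carrier that takes up most conjugated bile salts, ranged in responders from 4.68 through a median of 5.14 to 5.38, and in non-responders from 4.62 through a median of 4.98 to 5.31. The difference was 0.12 (SE 0.10), and the groups overlapped. Slc10a2, the sodium-coupled carrier of ileum that bile duct cells also use, differed by 0.18 (SE 0.26).

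Slco2b1, an organic anion carrier, ranged in responders from 4.65 through a median of 4.78 to 4.97, and in non-responders from 4.17 through a median of 4.50 to 4.89. The difference was 0.16 (SE 0.06, n = 10 against 10 arrays, limma unadjusted p = 0.0179, adjusted p = 0.543), and 8 of 10 responders lay above the mean of the non-responders of their series. All 4 responders of the first series lay above all 6 non-responders, with a difference of 0.29 (SE 0.08), but in the second series the difference was 0.03 (SE 0.08). On the 3 shared slides it was 0.20, -0.03 and -0.02. The change of the group difference between series had an unadjusted limma p of 0.0276 and an adjusted p of 0.474. Such a p was reached by 2 of the 31 genes (6.45 percent), against 9.67 percent of all rows and 0 percent after adjustment. With normexp background correction the Slco2b1 difference was -0.34 (SE 0.33).

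Slco1b2, the main liver organic anion carrier, ranged in responders from 7.50 through a median of 7.74 to 8.04, and in non-responders from 7.37 through a median of 7.66 to 7.86, with a difference of 0.14 (SE 0.08). Slco1a1 ranged in responders from 2.56 through a median of 2.96 to 3.33, and in non-responders from 2.54 through a median of 2.94 to 3.33, with a difference of 0.06 (SE 0.10). The groups overlapped for both of these carriers. Slco1a4 ranged in responders from -0.69 through a median of -0.07 to 1.05, and in non-responders from -0.26 through a median of 0.16 to 1.08. Its difference was -0.36 (SE 0.21), and 8 of 10 responders lay below the mean of the non-responders of their series, with differences of -0.38 and -0.34 in the 2 series. The prostaglandin carrier Slco2a1 differed by -0.02 (SE 0.12) in a fit that lacked 1 responder array, where its spot was flagged, and its other probe gave 0.11 (SE 0.09). It was the only one of 11 genes with several measured probes whose probes disagreed in sign.

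The 11 measured export carriers had a median difference of 0.08, which became -0.34 with normexp background correction and -0.02 in the second slide series alone. Of them 7 were above 0, 4 were below, and 0 had an unadjusted p under 0.05. Abcb11, the bile salt export pump, ranged in responders from 5.85 through a median of 6.59 to 6.84, and in non-responders from 5.55 through a median of 6.37 to 6.80. Its difference was 0.15 (SE 0.17), and by slide series it was 0.48 (SE 0.22) and -0.17 (SE 0.19). The change between series had an unadjusted limma p of 0.047 and an adjusted p of 0.509.

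Abcc2, which exports conjugated anions and is a second source of bile flow, ranged in responders from 3.43 through a median of 3.57 to 3.98, and in non-responders from 3.32 through a median of 3.71 to 3.95, with a difference of -0.06 (SE 0.10). Abcb4, the floppase that supplies phosphatidylcholine to bile, ranged in responders from 6.27 through a median of 6.45 to 6.67, and in non-responders from 6.08 through a median of 6.45 to 6.98, with a difference of 0.02 (SE 0.09). For both genes the non-responder range was the wider. Abcg5 and Abcg8 form the heterodimer that sends cholesterol into bile. Abcg5 ranged in responders from 4.62 through a median of 4.93 to 5.31, and in non-responders from 4.04 through a median of 5.34 to 5.61, with a difference of -0.10 (SE 0.19). Abcg8 ranged in responders from -0.54 through a median of -0.08 to 0.33, and in non-responders from -0.92 through a median of -0.20 to 0.15, with a difference of 0.19 (SE 0.15). The partners lay on opposite sides of 0, and neither difference had an unadjusted p under 0.05. The canalicular drug exporter Abcg2 differed by 0.13 (SE 0.10), and Atp8b1, the flippase that keeps the canalicular membrane stable, by 0.11 (SE 0.12).

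The basolateral exporters Abcc4, Abcc3 and Slc51a with Slc51b return bile acids to blood when they accumulate. Abcc4 ranged in responders from -2.36 through a median of -1.79 to -1.45, and in non-responders from -2.08 through a median of -1.58 to -1.22. Its difference was -0.24 (SE 0.13), with -0.29 and -0.19 in the 2 slide series. Abcc3 ranged in responders from 1.51 through a median of 2.38 to 3.07, and in non-responders from 1.62 through a median of 2.79 to 3.50, with a difference of -0.14 (SE 0.16). Both groups overlapped widely for these 2 carriers. Slc51b, the partner chain of Slc51a, ranged in responders from -4.07 through a median of -3.03 to -1.74, and in non-responders from -4.26 through a median of -3.43 to -1.73, with a difference of 0.08 (SE 0.26). The brighter probe of Slc51a read -8.10 to -5.08 with a median of -6.45 in responders and -7.41 to -6.07 with a median of -6.72 in non-responders, almost all not well above background, so no fold is given. Abcc6, also listed as basolateral, differed by 0.08 (SE 0.08).

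**Figure D3:**
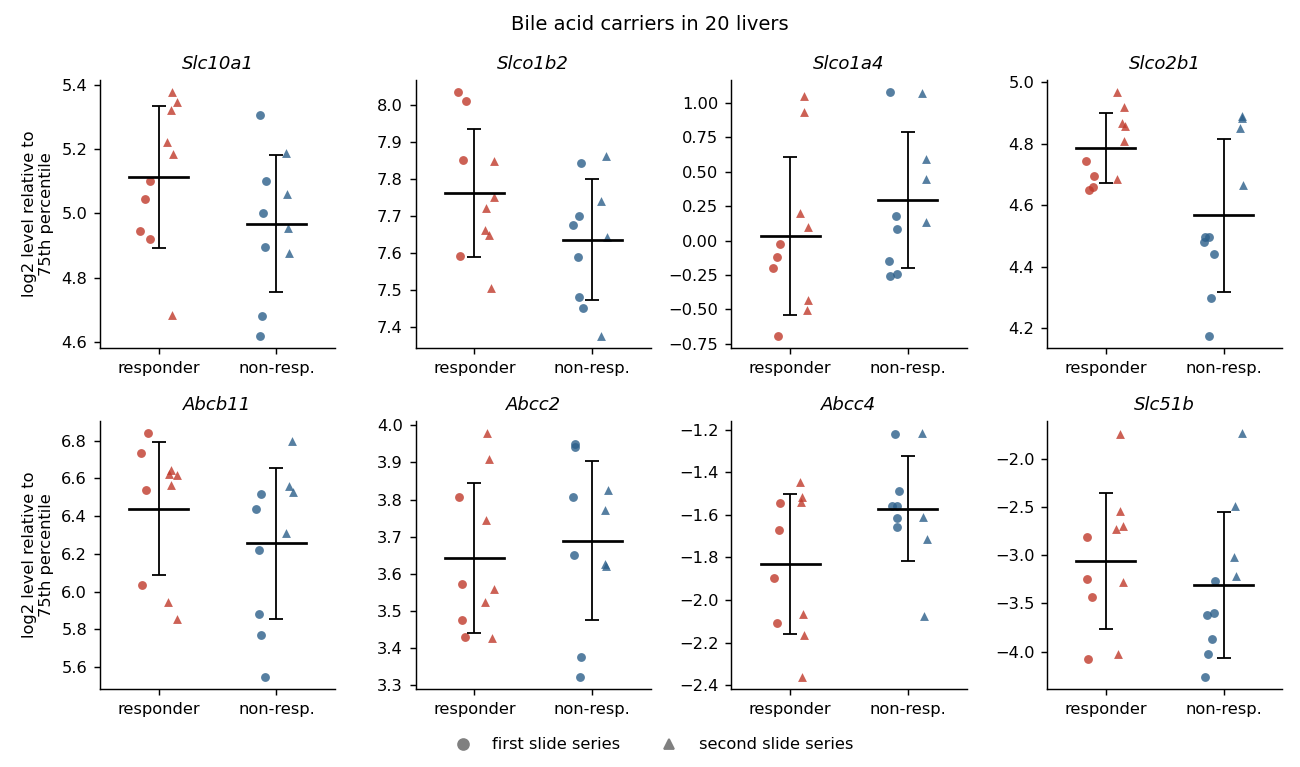
Log2 levels of 4 uptake and 4 export carriers relative to the array's 75th percentile in responder and non-responder livers, 1 point per array, circles for the first and triangles for the second slide series, with the group mean and SD (n = 10 each). For Slco2b1 the first-series responders lie above the first-series non-responders, with a difference of 0.29, while the second-series arrays of both groups lie together, with a difference of 0.03.

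Of the genes around the pathway, 0 had an adjusted limma p under 0.05, and the unadjusted counts below stand against 7.98 percent of all rows. Of 16 listed sensors and regulators, 14 were measured, 8 above 0 and 6 below, and 0 had an unadjusted p under 0.05. The bile acid receptor Nr1h4 differed by 0.02 (SE 0.12), its target Nr0b2 by 0.35 (SE 0.40), and Nr5a2, the activator of Cyp7a1 and Cyp8b1, by 0.10 (SE 0.12). Fgfr4 and Klb, the receptor and co-receptor for the ileal hormone that shuts down Cyp7a1, differed by 0.11 (SE 0.08) and -0.12 (SE 0.14). By slide series Klb differed by 0.27 (SE 0.15) and -0.50 (SE 0.17), and Nr5a2 by 0.35 (SE 0.17) and -0.16 (SE 0.12). Hnf4a differed by -0.56 (SE 0.14) in the first series and by 0.125 (SE 0.15) in the second. The change between series had an unadjusted limma p under 0.05 for 3 of the 14 sensors, Klb, Nr5a2 and Hnf4a, against 9.67 percent of all rows. Their smallest adjusted p for this change was 0.414. Of 14 other enzymes, 6 were above 0, 8 were below and 0 had an unadjusted p under 0.05. Cyp2c70, which makes muricholic acids in the mouse, differed by -0.02 (SE 0.16). Of 15 other carriers and canalicular scaffold genes, 7 were above 0, 8 were below, and 3 (20 percent) had an unadjusted p under 0.05. They were Slc22a7, an organic anion carrier of the sinusoidal membrane, at 0.42 (SE 0.13, limma adjusted p = 0.517), the motor gene Myo5b at 0.15 (SE 0.07, adjusted p = 0.599) and the carrier Slco4a1 at -0.35 (SE 0.15, adjusted p = 0.604). The median differences of these lists were 0.01, -0.01 and -0.001.

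Transcripts of neighbouring tissues also varied between livers. The summed adipose markers were 0.194 to 4.96, with a median of 0.778, in responders and 0.424 to 13.5, with a median of 4.64, in non-responders, on the linear scale relative to the 75th percentile. All 5 measured adipose markers of 6 were below 0 in responders, and 4, Adipoq, Plin1, Cidea and Cfd, had an unadjusted p under 0.05, against 3.73 percent of all rows lower at that mark. Lep was well above background on no array. The summed pancreatic markers, 8 genes, ran from 0.377 to 395 with a median of 8.87 in responders and from 0.620 to 379 with a median of 15.7 in non-responders, highest in responder 3 and non-responder 3. All 8 were below 0 in responders, 0 of them with an unadjusted limma p under 0.05. The summed bile duct markers, 10 genes of which Cftr was well above background on no array, ran from 6.97 to 14.2 with a median of 9.90 in responders and from 6.37 to 12.5 with a median of 7.93 in non-responders. Spp1 weighed most in this sum, with a mean log2 level of 2.71 in responders and 2.31 in non-responders, while the other markers averaged below 0. Of the 8 measured bile duct markers, 5 were above 0 in responders and 3 below. The defining ileal genes Fabp6 and Fgf15, the gut gene Cdx2 and the kidney genes Umod, Slc34a1, Slc12a1 and Nphs1 were above background on no array. The remaining kidney marker, Slc22a6, passed background on 10 responder and 10 non-responder arrays. Of the remaining gut markers, Lgals4 did so on 10 and 10, Vil1 on 10 and 5, and Sis on 2 and 2. The sum of 6 ileal markers was almost all Lgals4, which made up 91.7 to 99.4 percent of it over the 20 livers. It ran from 4.05 to 7.91 with a median of 5.44 in responders and from 4.87 to 16.4 with a median of 5.90 in non-responders, and the 5 kidney markers from 0.0844 to 0.252 with a median of 0.130 in responders and from 0.0939 to 0.256 with a median of 0.168 in non-responders. The part of adipose, pancreatic, bile duct, gut or kidney tissue in the Cyp39a1 and Slco2b1 differences was not tested.

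A number of the bile acid genes varied between livers along with the clock genes. Dbp, an output gene of the circadian clock, read 0.90 in non-responder 8 and 6.63 in non-responder 10, the lowest and the highest of the 20 livers. The first 2 principal components of 11 clock genes held 68.2 and 23.2 percent of their variance. The first ran from high Arntl and Clock at its low end to high Dbp, Tef and Per3 at its high end. The second ran from high Nr1d1 at its low end to high Cry1 at its high end. The first component averaged -0.03 in responders and 0.03 in non-responders, over a range from -1.37 to 0.92 in responders and from -2.31 to 1.04 in non-responders. The second averaged -0.29 in responders and 0.29 in non-responders, over a range from -1.61 to 1.87 in responders and from -1.39 to 1.68 in non-responders, so that the groups overlapped on both.

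A limma F test of both components, with group and slide series in the model, was chosen after seeing the data. It gave an adjusted p under 0.05 for 10 of the 31 genes (32.3 percent), against 18.3 percent of the 17172 rows outside the clock list. These were the 5 enzymes Hsd3b7, Amacr, Akr1d1, Cyp27a1 and Cyp8b1, the uptake carrier Slco1a4, and the exporters Abcb11, Abcg5, Abcc2 and Slc51b. Without non-responder 10, whose Dbp was the highest, 9 passed, against 16.9 percent of all rows, and Slc51b did not (adjusted p = 0.0504).

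Hsd3b7, the dehydrogenase that both kinds of pathway need, ranged in responders from 6.39 through a median of 7.27 to 7.79, and in non-responders from 6.10 through a median of 6.94 to 7.56. It had 90.7 percent of its variance within group and series taken up by the 2 components (limma adjusted p = 3.88e-06). Its level fell by 0.23 (SE 0.03) per unit of the first component and by 0.34 (SE 0.04) per unit of the second, with slopes of -0.26 and -0.22 for the first component in the 2 slide series and -0.26 and -0.43 for the second. Abcb11 followed with 82.0 percent (adjusted p = 0.000134) and slopes of -0.19 (SE 0.04) and -0.28 (SE 0.04). Akr1d1 and Cyp27a1 had slopes of the other sign on the second component, 0.29 (SE 0.06) and 0.27 (SE 0.06), with 62.8 and 59.7 percent. Cyp8b1 had 51.7 percent, with slopes of -0.27 (SE 0.09) and 0.31 (SE 0.10). Cyp7a1 did not pass, with 30.1 percent (adjusted p = 0.147).

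The shares were low for both genes with an unadjusted p under 0.05 between groups. The components took up 3.4 percent of the Cyp39a1 variance and 9.97 percent of that of Slco2b1. With both components as covariates the group difference was -0.66 (SE 0.21) for Cyp39a1 and 0.16 (SE 0.06) for Slco2b1, and it was -0.03 (SE 0.08) for Abcb11, against 0.15 (SE 0.17) without them. Over all rows 0 genes then had an adjusted limma p under 0.05. The hour of death is not in the labels, and its part in the clock values was not tested.

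**Figure D4:**
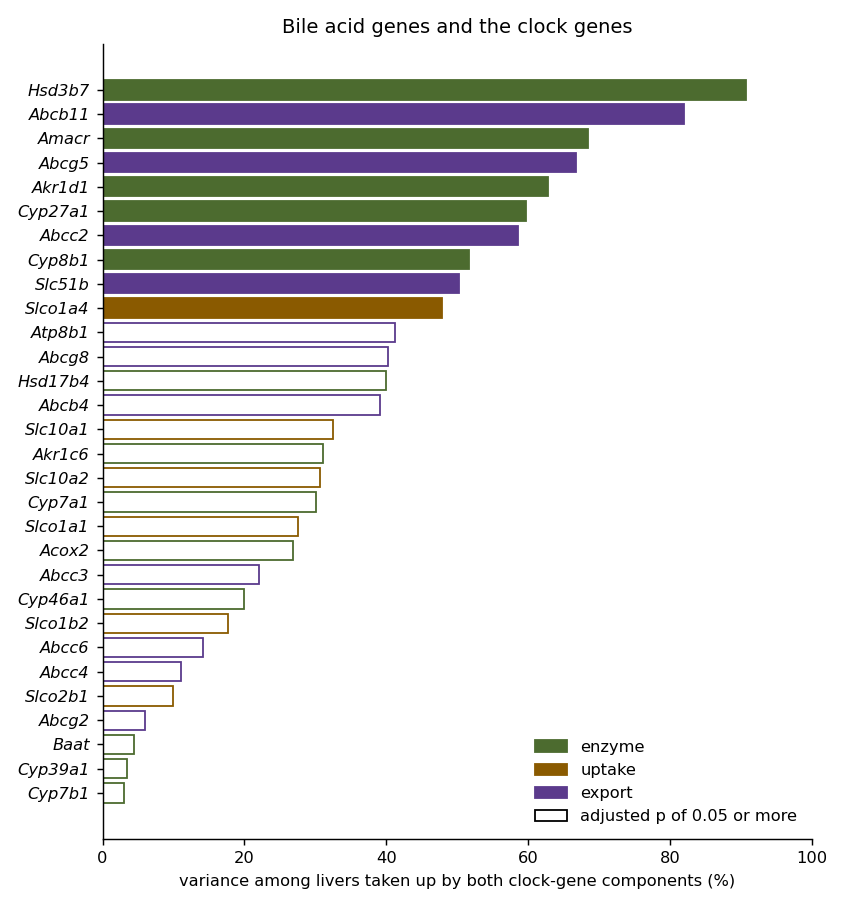
Share of the variance among livers, within group and slide series, that the first 2 principal components of 11 clock genes took up, for 30 bile acid genes with a value on every array. Filled bars mark the 10 genes with a limma adjusted p under 0.05, from Hsd3b7 at 90.7 percent to Slco1a4 at 47.8 percent, and Cyp39a1 lies near the foot at 3.4 percent.

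The same genes varied together in pairs. Values below are correlations over 20 livers after removing the slide series means, with permutation within series. These pairs were looked at after seeing the data. Among 435 pairs of the 30 genes with a value on every array, 15 (3.45 percent) had an absolute r over 0.7, against 0.851 percent of all pairs of rows on the array. A two-sided permutation p under 0.05 after Benjamini-Hochberg adjustment over the 435 pairs was found for 25, 13 positive and 12 negative, and that count was not made for pairs of other rows. Abcb11 and Hsd3b7 had the highest correlation, with r = 0.93 and rho = 0.89. The permutation p was 1e-05 for both, the smallest that 100000 resamples can give, with an adjusted p of 0.00435. It was 0.94 within responders, 0.93 within non-responders, 0.96 and 0.92 in the 2 slide series, and 0.91 without the 2 livers farthest from the median of Hsd3b7. With the clock components removed, r was 0.51. Hsd3b7 ran opposite to Abcc2, with r = -0.82 (rho = -0.80, permutation p = 4e-05 and 8e-05, adjusted p = 0.0058 and 0.0116), and Abcb11 did so at r = -0.79 (rho = -0.70, permutation p = 0.00019 and 0.00188, adjusted p = 0.0124 and 0.0469). Without the 2 livers farthest from the median these were -0.78 and -0.73. With the clock components removed they were -0.51 and -0.40.

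Cyp8b1 and Hsd17b4 correlated at r = 0.86 (rho = 0.79, permutation p = 2e-05 and 5e-05, adjusted p = 0.00435 and 0.0109). It was 0.71 without the 2 livers farthest from the median of Cyp8b1, and 0.77 with the clock components removed. Within responders it was 0.69 and within non-responders 0.95. The lowest point of both genes was non-responder 10. Of the 15 pairs with an absolute r over 0.7, 3 stayed over it with the components removed, Cyp8b1 with Hsd17b4, Cyp7b1 with Abcg2 and Hsd17b4 with Abcg2. Cyp7b1 with Abcg2 had r = 0.73 (rho = 0.47, permutation adjusted p = 0.0737 and 0.273). Its r was 0.44 without the 2 livers farthest from the median of Cyp7b1. Hsd17b4 with Abcg2 had r = 0.71 (rho = 0.51, permutation adjusted p = 0.0452 and 0.173). Its r was 0.43 without the 2 livers farthest from the median of Hsd17b4. Non-responder 10 was the lowest liver for Cyp7b1, Hsd17b4 and Abcg2.

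A separate family of 14 pairs was listed by function and adjusted on its own, and some of its pairs, such as Abcg5 with Abcg8, are also among the 435. Of the 14, 3 had an adjusted p under 0.05. Cyp7a1 ran opposite to Nr0b2, its repressor's gene, with r = -0.74 (rho = -0.78, permutation p = 0.00028 and 1e-05, adjusted p = 0.00392 and 0.00014). Nr0b2 itself ranged in responders from -1.38 through a median of 0.66 to 1.30, and in non-responders from -1.19 through a median of 0.21 to 1.07. The correlation was -0.76 within responders, -0.73 within non-responders, -0.73 and -0.80 in the 2 slide series, and -0.78 without the 2 livers farthest from the median of Cyp7a1. Abcb11 ran with Nr0b2, both targets of the bile acid receptor, at r = 0.62 (rho = 0.49, permutation p = 0.00384 and 0.0261, adjusted p = 0.0179 and 0.0913), with 0.74 and 0.53 in the 2 series and 0.55 without the 2 farthest livers. Abcg5 and Abcg8, which share a promoter region, gave r = 0.68 (rho = 0.58, permutation p = 0.00128 and 0.0103, adjusted p = 0.00896 and 0.0724), with 0.73 and 0.66 in the 2 series and 0.52 without the 2 farthest livers. Among the 435 the adjusted p of r for Abcg5 with Abcg8 was 0.0334. For both Abcb11 with Nr0b2 and Abcg5 with Abcg8, rho did not pass the adjustment over the 14. Within responders r was 0.75 for Abcb11 with Nr0b2 and 0.47 for Abcg5 with Abcg8. Within non-responders it was 0.42 and 0.91, and the difference between groups was not tested. With the clock components removed, r was 0.51 for Abcg5 with Abcg8, and it was not computed for the pairs with Nr0b2. Those components took up 82 percent of the Abcb11 variance, 30.1 percent of that of Cyp7a1 and 32.9 percent of that of Nr0b2. The other 11 pairs had adjusted p-values of 0.0556 or more, among them Cyp7a1 with Cyp8b1 at r = 0.24 (rho = 0.23, permutation p = 0.283 and 0.318, adjusted p = 0.331 and 0.405).

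**Figure D5:**
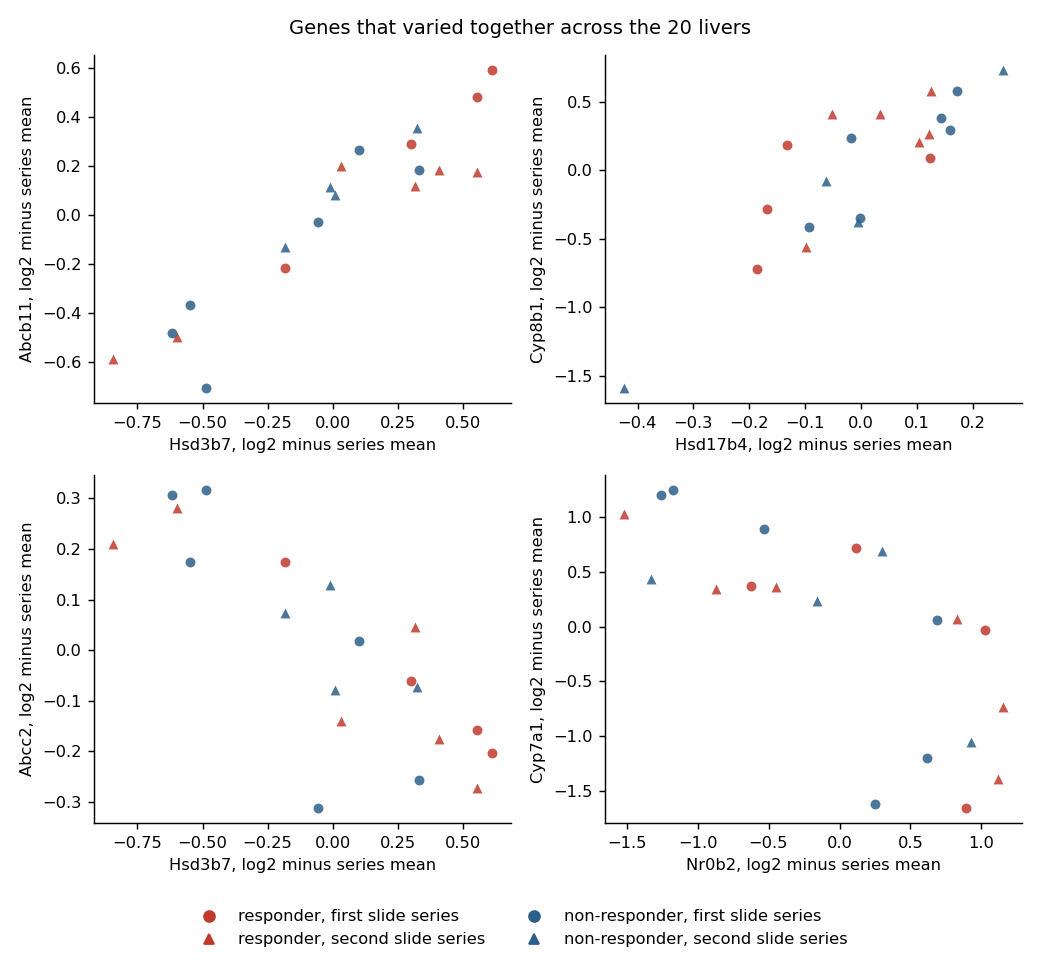
Log2 levels of 4 pairs of genes in the 20 livers after removing the slide series means, responders in red and non-responders in blue, circles for the first and triangles for the second slide series. The pairs have r = 0.93 (Abcb11 with Hsd3b7), 0.86 (Cyp8b1 with Hsd17b4), -0.82 (Abcc2 with Hsd3b7) and -0.74 (Cyp7a1 with Nr0b2), with responders and non-responders mixed along each trend.

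The promoters of Abcb11 and Hsd3b7, the closest pair, and of Cyp8b1, which differed from them in the sign of its slope on the second clock component, are shown as the 250 bases before the RefSeq start in GRCm38.p6, each on its gene's strand and 5′ to 3′. Capitals mark the motifs found in either direction.
Abcb11, chr2:69342617-69342866, minus strand: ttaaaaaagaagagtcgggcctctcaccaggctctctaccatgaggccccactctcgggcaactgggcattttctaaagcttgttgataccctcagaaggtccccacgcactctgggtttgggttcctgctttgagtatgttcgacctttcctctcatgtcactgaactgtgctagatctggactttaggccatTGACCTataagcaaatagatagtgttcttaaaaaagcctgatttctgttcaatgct
Hsd3b7, chr7:127800359-127800608, plus strand: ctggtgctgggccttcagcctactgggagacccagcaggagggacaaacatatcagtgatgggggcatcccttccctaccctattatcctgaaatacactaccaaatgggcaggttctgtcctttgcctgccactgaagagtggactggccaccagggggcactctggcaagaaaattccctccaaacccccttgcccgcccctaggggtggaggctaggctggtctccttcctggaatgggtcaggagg
Cyp8b1, chr9:121916306-121916555, minus strand: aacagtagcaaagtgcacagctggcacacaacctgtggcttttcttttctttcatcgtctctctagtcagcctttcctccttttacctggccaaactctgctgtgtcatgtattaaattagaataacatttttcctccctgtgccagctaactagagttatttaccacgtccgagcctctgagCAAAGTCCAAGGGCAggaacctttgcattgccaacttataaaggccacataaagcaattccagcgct

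The motifs searched on both strands were CAAGGNCA for NR5A2, CAAAGNCCA for HNF4A, TTATGNAA for DBP and its relatives, the inverted repeat with a 1-base spacer (IR1) for the bile acid receptor, and AGGTCA, the core hexamer of nuclear receptors, which the receptor motif contains. Abcb11 held 1 core hexamer, from 56 to 51 bases before its start. Cyp8b1 held an HNF4A motif from 67 to 59 bases before its start and an NR5A2 motif from 60 to 53 bases, which overlap. Hsd3b7 held none of these letters in its window. The inverted repeat was found as an exact match in 0 of the member windows. With up to 1 base off, a setting chosen after seeing the data, it was in 0.0791 percent of all windows and in 2 of the 32 member windows, from 63 to 51 bases before the start of Abcb11, where it takes in the core hexamer, and from 88 to 76 bases before that of Slco1b2. Of all 32851 windows, 14.0 percent held the core hexamer, 5.53 percent the NR5A2 motif, 1.70 percent the HNF4A motif, 3.07 percent the DBP motif and 0.00609 percent the exact receptor repeat. A window was found for 24 of the 33 genes, 32 windows in all, of which 10 held the core hexamer, 4 the NR5A2 motif, 1 the HNF4A motif and 3 the DBP motif. The windows with the DBP motif belong to Akr1d1, Cyp27a1 and Abcg2. Akr1d1 and Cyp27a1 were among the 10 genes that passed the clock test and Abcg2 was not, with 5.98 percent of its variance. Of the other genes that passed, Amacr had no window and the rest held no DBP motif in theirs. On the first component, with high Dbp at its high end, Akr1d1 and Cyp27a1 had slopes of 0.09 (SE 0.06) and -0.06 (SE 0.05). Their larger slopes were on the second, where Dbp had a loading of -0.17. A part of the motif in the clock values was not tested.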

How the data were processed

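Total RNA of 20 livers, 10 from responders and 10 from non-responders, was amplified, labelled with Cy3 and hybridised to 1-colour Agilent arrays of 45018 spots, per the labels' protocols. The authors deposited each array's scanner output, with spot intensity on a linear scale from Agilent Feature Extraction, given as version 10.5.1.1 in the deposited file headers, while the submitters' processing notes name 9.1. They also deposited a table of linear intensity, whose 20 column medians ran from 66.5 to 69.8, and its log2 was used as an alternative. Its columns ranked probes as the scanner values did (Spearman correlation 0.954 or more on each array), while its normalization is not stated. Genome positions of probes are those of the files, in mm9.

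The processed intensity, already background-subtracted, was taken as log2 minus each array's 75th percentile. Control and outlier-flagged spots were dropped and spots of a probe averaged. A probe was kept where at least 5 arrays of either group were well above background, and the brightest kept probe stood for its gene, which left 17183 rows. limma 3.58.1 in R 4.3.3 fitted group and slide series to all rows, with Benjamini-Hochberg adjustment, and the fit was tested on simulated data. Correlations used 100000 permutations within slide series (Python 3.11.15, numpy 2.4.6, scipy 1.17.1). Array number limits precision, and no spot was saturated.

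Genes named in the text with their ranges are the main enzymes and carriers and every gene with an unadjusted p under 0.05, except 1 that is not reported here. The members, the lists around them and the pairs were chosen with earlier results of these data known. The alternatives were normexp and plain background correction, quantile normalization, log2 of the authors' table, other probe filters, slide terms, array weights, a trended variance, the clock components and leaving out each array.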

Additional observations from a re-analysis of the deposited data

Results flagged for a closer look

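In 62 groups of 1 gene in 10 livers (9 for Slco2a1 in responders), a single liver lay far from the rest of its group in 4. Chance gives about 1 in 20 groups. Non-responder 10 was lowest among the non-responders for Cyp8b1 at 2.01, against 3.22 for the next liver, for Cyp7b1 at 5.63, against 6.83, and for Hsd17b4 at 6.09, against 6.42. Non-responder 8 was highest for Slco2a1 at 3.48, against 3.04 for the next.

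Non-responder 10 had the highest Dbp of the 20 livers, at 6.63, and non-responder 8 the lowest, at 0.90. Without non-responder 10 the Cyp8b1 difference between groups was -0.11 and that of Cyp7b1 -0.11, against 0.12 and 0.08 with it.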

How the results depend on the processing

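Over all rows 0 genes had an adjusted limma p under 0.05 under every alternative run and without each array in turn (0 to 0), and 1371 at an unadjusted p under 0.05 became 401 with normexp, 1829 with a replicate block and 897 with plain background subtraction, the last chosen after seeing the data. The bile acid genes at an unadjusted p under 0.05, 1 higher and 1 lower, were 0 higher with normexp, 3 higher and 2 lower in the first slide series alone, 0 higher in the second, and 1 to 2 higher and 1 to 3 lower without each array. The higher count was 2 without responder 3 or non-responder 9, and the lower count 3 without responder 6 and 2 without responder 8 or non-responder 9. Normexp gave subgroup medians of -0.39 for enzymes, -0.34 for uptake and -0.34 for export carriers, and -0.34 for Slco2b1. Its fitted background mean lay under -50 on 6 arrays, 4 of them responders, and the cause of the shift was not tested. Without each array the medians ran from -0.08 to 0.05 for enzymes (lowest without non-responder 10), 0.06 to 0.15 for uptake (lowest without responder 6) and 0.003 to 0.08 for export (lowest without responder 1). Slco2b1 was 0.03 in the second series alone. With the sample number as a replicate block, 2 were higher and 3 lower at an unadjusted p under 0.05, 0 genes had an adjusted p under 0.05, and same-numbered samples correlated from -0.18 to 0.59, 6 of 10 pairs over 0.1, and 3 responders of 10 best with their own number, so the numbers were not taken as pairs. The 14 named pairs kept their side of 0.05 with quantile normalization, the authors' values (2 pairs had none) and group means removed, and all but Abcc4 with Slco1a1, at -0.05 in the authors' values, kept their sign. Cyp39a1 was between -0.84 and -0.57 under 16 other settings, with an unadjusted p under 0.05 in 16 of them. With 10 arrays a group, a gene as variable as Cyp7a1 (SE 0.43) shows only large differences.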

Other observations

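Non-responder 10 was the lowest of the 20 livers for 8 of the 31 measured genes, Cyp8b1, Cyp27a1, Cyp7b1, Cyp46a1, Hsd17b4, Slco1b2, Abcb4 and Abcg2, and the highest for 3. Responder 6 was the highest for 5 and the lowest for 0. Slide series means were not removed for these counts. The same counts were not made over all rows, so they are not read as a trait of the bile acid genes. Slc22a7, an organic anion carrier beside the uptake group, ranged in responders from 5.37 through a median of 5.58 to 6.16, and in non-responders from 4.45 through a median of 5.33 to 5.91, with series differences of 0.33 and 0.50.

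Cyp39a1 ran opposite to Slco1b2 over the 20 livers with series means removed, at r = -0.66 (rho = -0.74, permutation p = 0.00237 and 0.00034, adjusted over 435 pairs p = 0.0452 and 0.0222). It was -0.61 and -0.75 in the 2 slide series, -0.82 within responders, -0.27 within non-responders, and -0.60 without the 2 livers farthest from the median of Cyp39a1. The difference between the groups in this relation was not tested.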
